A study of Arabidopsis thaliana with 10 samples.

Results

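In this RNA-seq series every genotype of *Arabidopsis thaliana* seedlings was sequenced once as replicate 1 and once as replicate 2, and the analysis here compares the 5 libraries numbered replicate 1 (replicate set 1) with the 5 libraries numbered replicate 2 (replicate set 2). The sets were taken from the replicate number in the library titles and together hold all 10 libraries of the series, 5 in each set. Each set holds 1 library of the T-DNA insertion mutant *fld* (SALK_075401), 1 of the T-DNA mutant *ld* (SALK_003039), 1 of the double mutant *efl2 efl4* (written elf2/4 in the titles), in which both genes were mutated by CRISPR/Cas9, 1 of the double T-DNA mutant *sdg26 aprf1* (SALK_013895 and the *aprf1-9* allele), and 1 of Col-0, the wild-type accession in which all these mutants were made. All seedlings were 10 days old and were grown on MS plates at 23°C with 16 h of light and 8 h of dark. The study calls the replicates independent, but neither its methods nor the labels say whether a number stands for a harvest, a plate, a day or an extraction, and the sets are therefore called only by their number. Because each genotype is in both sets, a difference between the sets is not a difference between genotypes, and with genotype as a block it rests on 5 within-genotype pairs.

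The mutated genes belong to the autonomous pathway, which promotes flowering by keeping the repressor gene *FLC* low. Seedling transcriptomes also follow conditions other than such mutations: the circadian clock sets the level of many genes by the hour, sulfate, iron, phosphate and nitrate supply each control dedicated sets of transporter, assimilation and regulator genes, and warmth, sugar status and handling act within minutes to hours on heat shock, starvation and stress genes. Gene lists for these processes were used to describe how the sets differ. The lists were written with earlier results of these data known, so their counts and rankings are a description and not independent support.

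The libraries held 20455413 to 20768023 reads on genes, and 23207 to 23570 genes had a read. Of the variance of log2 levels over 20050 tested genes, 34.5% lay between the sets (1 degree of freedom), 44.6% between the genotypes (4 degrees of freedom) and 20.9% in the remainder. On the first principal component, with 35.2% of the variance, the set 1 libraries scored -26.5 to -12.8 and the set 2 libraries 17.4 to 23.2, so the sets did not overlap, and *sdg26 aprf1* replicate 1 was the set 1 library closest to set 2. With genotype as a block, 5839 genes (29.1%) passed an edgeR quasi-likelihood test at a Benjamini-Hochberg adjusted p under 0.05, and 3138 of these (15.7% of all tested) were higher and 2701 (13.5%) lower in set 1. The differences were mostly small. The median log2 fold change over all tested genes (log2FC, set 1 over set 2) was 0.00094, 5% of genes lay below -0.40 and 5% above 0.47, and 189 called genes (0.943%) rose and 118 (0.589%) fell by at least 1 on the log2 scale. In the same fit, the F test of genotype called 812 genes (4.05%). The set was tested with 1 degree of freedom and genotype with 4, so these counts do not compare the size of their effects. The 5 within-genotype differences correlated across genes with each other at 0.371 to 0.611, and the lowest 3 of these values, 0.371, 0.424 and 0.50, were pairs with *sdg26 aprf1*. Genes are not independent replicates, and these values were not tested. Log2FC had a correlation across genes of 0.03 with exonic length, -0.01 with GC content and 0.01 with mean level.

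**Figure D1:**
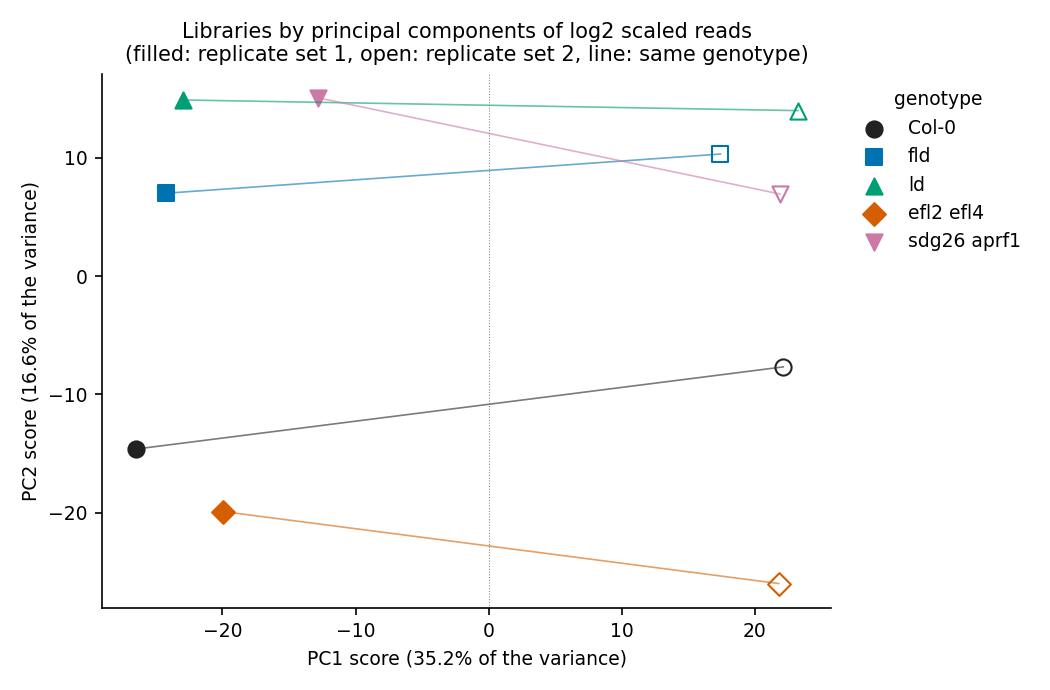
First and second principal component scores of the 10 libraries, from log2 scaled reads of the tested genes; filled symbols are replicate set 1, open symbols replicate set 2, and a line joins the libraries of a genotype. Set 1 lies at -26.5 to -12.8 and set 2 at 17.4 to 23.2 on the first component, while the second component spreads the genotypes.

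Levels below are scaled reads, that is recovered reads divided by the library's TMM-scaled size relative to the mean library, and the values of a set are always given in the order Col-0, *fld*, *ld*, *efl2 efl4*, then *sdg26 aprf1*. The difference between a pair of genes in scaled reads also reflects their lengths, so levels are compared only within a gene. In whole seedlings, fewer cells of a type and less RNA per cell cannot be told apart. For a gene with reads in other libraries, a level of up to 3 reads is still possible where no read was seen. For every list, counts of called genes stand beside 15.7% called higher and 13.5% called lower over all tested genes. Counts without overlap stand beside 9.07% higher and 7.42% lower.

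The mutated genes were as labelled in both sets. *FLD* had 449.8, 42.7, 455, 422 and 454 scaled reads in set 1, against 461, 40.0, 495, 453 and 444 in set 2, with both *fld* libraries far below the rest. *SDG26* had 265, 281, 277, 291 and 50.3 scaled reads in set 1, against 317, 331, 351, 319 and 54.6 in set 2, lowest in both *sdg26 aprf1* libraries, and *LD* and *APRF1* (listed by its identifier AT5G14530) were lowest in the *ld* and the *sdg26 aprf1* libraries of each set. *EFL2* and *EFL4* were lowest in *efl2 efl4* in each set, but a CRISPR/Cas9 edit need not lower the transcript, so their level is a weaker check. Between the sets, *FLD* (log2FC -0.05, edgeR adjusted p = 0.534), *LD* (log2FC -0.11, edgeR adjusted p = 0.0794), *EFL4* (log2FC -0.02, edgeR adjusted p = 0.922) and *APRF1* (log2FC -0.06, edgeR adjusted p = 0.604) did not pass, while *EFL2* (log2FC -0.26, edgeR adjusted p = 0.0342) and *SDG26* (log2FC -0.23, edgeR adjusted p = 0.0164) were slightly lower in set 1.

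Sulfate assimilation was the list with the highest median. Of its 16 tested genes, 13 rose in set 1 and 0 fell, with a median log2FC of 0.89 against 0.00094 over all tested genes. The gene with the smallest p among those named was *LSU3* (AT3G49570), which encodes a small protein that accumulates under low sulfur and was not on the list. *LSU3* had 737, 872, 762, 670.2 and 419.8 scaled reads in set 1, against 119, 121, 97.8, 71.6 and 55.6 in set 2. Every set 1 library lay above every set 2 library, the lowest being *sdg26 aprf1* in both sets, and the gene rose in set 1 (log2FC 2.90 ± 0.08 (SE), edgeR adjusted p = 4.86e-08). *SDI1* (AT5G48850), a sulfur deficiency-induced gene known as a repressor of aliphatic glucosinolate synthesis, had 1632, 2097, 1830.2, 1518 and 1279.6 scaled reads in set 1, against 401, 489, 375, 252 and 159 in set 2. Its sets did not overlap and it rose (log2FC 2.37 ± 0.12 (SE), edgeR adjusted p = 1.26e-06). *APR1* and *APR2*, which encode adenosine 5′-phosphosulfate reductases of the assimilation pathway, followed the same pattern. *APR1* (AT4G04610) had 3648, 3933, 4018, 4089 and 4126 scaled reads in set 1, against 1309.9, 1173, 1059, 997 and 946 in set 2 (log2FC 1.86 ± 0.08 (SE), edgeR adjusted p = 6.66e-07). *APR2* (AT1G62180) had 2381, 2277, 2263, 2672 and 2561 scaled reads in set 1, against 1095, 1082, 1039, 1072 and 1069 in set 2 (log2FC 1.18 ± 0.04 (SE), edgeR adjusted p = 3.57e-07). Within each set the 5 genotypes differed little in both genes, and the sets lay far apart. The largest rise on the list beside *SDI1* was that of AT1G04770, for which the annotation gives no gene name, with 1031 to 1225 scaled reads in set 1, against 176 to 251 in set 2 (log2FC 2.36 ± 0.08 (SE), edgeR adjusted p = 1.91e-07). Smaller rises were those of *LSU2* (log2FC 1.77), *APR3* (1.34) and *LSU1* (1.13). The transporter genes moved less. *SULTR1;2* and *SULTR4;2* rose with log2FC values of 0.22 and 0.22, whereas *SULTR1;1* (-0.10), *SULTR2;1* (0.07) and the ATP sulfurylase gene *APS1* (-0.08) did not pass the test. The median of the list was positive in every genotype, with 0.64 in Col-0, 1.02 in *fld*, 0.71 in *ld*, 1.05 in *efl2 efl4*, with *sdg26 aprf1* at 1.07.

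Aliphatic glucosinolates are sulfur-rich defence compounds made from methionine. All 20 tested genes of their synthesis rose in set 1, with a median log2FC of 0.63 and values from 0.20 (*MAM3*) to 1.84 (*MYB76*). In 14 of the 20, no set 1 library overlapped a set 2 library, where 9.07% of all tested genes showed this in the higher direction. The transcription factor gene *MYB29* (AT5G07690), an activator of the pathway, had 489.8, 426, 403, 508 and 391 scaled reads in set 1, against 199.6, 190.1, 157, 203 and 142 in set 2. Its lowest set 1 library, *sdg26 aprf1*, still exceeded its highest set 2 library, *efl2 efl4* (log2FC 1.32 ± 0.06 (SE), edgeR adjusted p = 7.4e-07). The other activator, *MYB28*, averaged 2445 ± 52.6 scaled reads in set 1 and 1552 ± 155 in set 2 (SD, n = 5 each) (log2FC 0.66 ± 0.05 (SE), edgeR adjusted p = 2.07e-05). *CYP79F1* (AT1G16410), which encodes the enzyme that converts chain-elongated methionine to aldoximes, had 2385, 1869.6, 1745, 2999.6 and 927 scaled reads in set 1, against 844, 881, 512, 1008 and 378 in set 2. Here the sets overlapped, because *sdg26 aprf1* in set 1 lay below *efl2 efl4* in set 2, but set 1 was higher in each of the 5 pairs (log2FC 1.45 ± 0.08 (SE), edgeR adjusted p = 2.85e-06). Its neighbour *CYP79F2* is close to it in sequence and rose less (log2FC 0.38), and reads of 50 bases may not always tell them apart. *FMOGSOX3*, which encodes an enzyme that oxygenates the side chain, had 767 to 948 scaled reads in set 1, against 277 to 417 in set 2 (log2FC 1.26, edgeR adjusted p = 3.34e-06), and *BAT5*, which encodes a plastid transporter of the pathway, had 723 to 835 scaled reads in set 1, against 392 to 433 in set 2 (log2FC 0.86, edgeR adjusted p = 4.38e-06). A further 2 genes of the list were not tested: *GSTF11* was listed at 0 in every library, from which its expression cannot be told, and *AOP2* was not analysed here.

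Indolic glucosinolates, made from tryptophan, did not move in 1 direction: of 11 tested genes 6 rose and 4 fell. The late gene *IGMT1* (AT1G21100), which encodes a methyltransferase of the indole ring, had 96.0, 91.4, 82.7, 53.8 and 94.6 scaled reads in set 1, against 319, 244, 201, 148 and 211 in set 2. Every set 1 library lay below every set 2 library (log2FC -1.41 ± 0.09 (SE), edgeR adjusted p = 6.49e-06). *CYP81F2*, which acts just before it, had 125 to 204 scaled reads in set 1, against 217 to 383 in set 2 (log2FC -0.97, edgeR adjusted p = 0.000559), and the activator *MYB34* fell by 0.31 on the log2 scale (log2FC -0.31, edgeR adjusted p = 0.000857). *UGT74B1*, shared by both branches as a glucosyltransferase of the core pathway, rose (log2FC 0.46, edgeR adjusted p = 0.000163).

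Of 26 tested genes of iron homeostasis, 18 rose and 2 fell in set 1, and 12 rose by at least 1 on the log2 scale. The median log2FC was 0.77. The rises included the subgroup Ib bHLH factors, which are made under iron deficiency: *BHLH100* (2.02), *BHLH101* (1.94), *BHLH39* (1.44) and *BHLH38* (1.22). *BHLH100* (AT2G41240) had 1533, 1618, 2161, 264 and 1909 scaled reads in set 1, against 369, 547, 447, 62.7 and 417 in set 2. In both sets *efl2 efl4* was far below the other genotypes, so the sets overlapped over all libraries, yet each pair was higher in set 1 (log2FC 2.02 ± 0.09 (SE), edgeR adjusted p = 8.32e-07). *BHLH101* had the same low *efl2 efl4* libraries, with 219, 274, 345, 42.8 and 322 scaled reads in set 1, against 66.2, 93.1, 75.4, 6.96 and 72.5 in set 2 (log2FC 1.94 ± 0.12 (SE), edgeR adjusted p = 3.85e-06). The gene of the list with the smallest p was *OPT3* (AT4G16370), a transporter gene of the phloem that takes part in iron signalling from shoot to root. *OPT3* had 9505, 9943, 10899.6, 8592 and 10604 scaled reads in set 1, against 4686, 5033, 4415, 4055 and 4974 in set 2. Its sets did not overlap (log2FC 1.1 ± 0.05 (SE), edgeR adjusted p = 5.09e-07). *BTS*, which encodes an E3 ligase that restrains the iron deficiency response, had 7568, 7737, 9501, 4676 and 9763 scaled reads in set 1, against 3099.9, 3315, 2928, 1942 and 3131 in set 2 (log2FC 1.42 ± 0.07 (SE), edgeR adjusted p = 1.37e-06). *ZIF1*, a vacuolar transporter gene for nicotianamine, rose as well (log2FC 1.38 ± 0.07 (SE), edgeR adjusted p = 1.7e-06). The 2 genes that fell were the ferritin genes *FER1* (log2FC -0.72, edgeR adjusted p = 4.86e-05) and *FER4* (log2FC -0.68, edgeR adjusted p = 0.000176), whose proteins store iron. *FER1* had 1398, 1621, 1247, 1832 and 1100.4 scaled reads in set 1, against 2277, 2377, 2320.1, 2587 and 2175 in set 2. The root uptake genes *IRT1* (log2FC 0.60) and *FRO2* (0.63) rose, and *FRU*, the annotation's name for the regulator FIT, rose by 0.24.

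Of 19 phosphate starvation genes 15 were called higher and 0 lower, with a median log2FC of 0.37. The count of rises was 10 without both *ld* libraries and 12 with DESeq2, with 0 lower in each. *SPX1* (AT5G20150), whose protein senses inositol pyrophosphates and holds the phosphate starvation factor PHR1, had 1863, 2222, 2021, 1862 and 1239 scaled reads in set 1, against 781, 765, 569.6, 591 and 665 in set 2. Every set 1 library exceeded every set 2 library, with *sdg26 aprf1* the lowest in set 1 (log2FC 1.44 ± 0.11 (SE), edgeR adjusted p = 1.45e-05). *GDPD1* (AT3G02040), which encodes a glycerophosphodiester phosphodiesterase, had 1899, 2326, 2249.9, 1796 and 1536 scaled reads in set 1, against 1306, 1088, 974, 663 and 787 in set 2 (log2FC 1.04 ± 0.10 (SE), edgeR adjusted p = 5.73e-05). *PS2* (AT1G73010), a phosphatase gene, had 1019.5, 914, 893, 1024 and 660.4 scaled reads in set 1, against 509, 324, 283, 452 and 436 in set 2 (log2FC 1.18 ± 0.12 (SE), edgeR adjusted p = 9.34e-05). All 10 of these pairs were higher in set 1. The acid phosphatase gene *PAP17* rose too (log2FC 0.94 ± 0.08 (SE), edgeR adjusted p = 2.48e-05), and the transporter genes *PHT1;1* (0.22) and *PHT1;4* (0.31) rose slightly. By genotype, the median was 0.37 in Col-0, 0.40 in *fld*, 0.46 in *ld*, 0.38 in *efl2 efl4*, with *sdg26 aprf1* at 0.14. In *sdg26 aprf1* 6 of the 19 genes lay below 0, and 0 had at least 1 on the log2 scale.

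The PHR1 binding site, with the letters GNATATNC, was found on either strand in 10 of the 19 promoters of this list (52.6%) and in 6.28% of the promoters of all tested genes with one, where a promoter is 250 bases before to 50 bases from the annotated start. The share was 7.46% among all genes that rose and 6.63% among those that fell. Among genes that rose or fell by at least 1 on the log2 scale it was 11.1% and 10.2%. The windows of the 3 phosphate genes with the largest rises among those that hold the site are shown with the site in capitals, 5′ to 3′ on the gene's strand, from the TAIR10.1 sequence and annotation of RefSeq.
*SPX1*, chr5:6802032-6802331, + strand: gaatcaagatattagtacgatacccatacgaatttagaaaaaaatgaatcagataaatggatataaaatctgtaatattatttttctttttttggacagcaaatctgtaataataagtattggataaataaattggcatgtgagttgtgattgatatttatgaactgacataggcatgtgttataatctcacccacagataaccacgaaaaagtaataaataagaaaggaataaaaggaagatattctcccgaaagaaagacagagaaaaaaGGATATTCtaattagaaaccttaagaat
*PS2*, chr1:27466299-27466598, - strand: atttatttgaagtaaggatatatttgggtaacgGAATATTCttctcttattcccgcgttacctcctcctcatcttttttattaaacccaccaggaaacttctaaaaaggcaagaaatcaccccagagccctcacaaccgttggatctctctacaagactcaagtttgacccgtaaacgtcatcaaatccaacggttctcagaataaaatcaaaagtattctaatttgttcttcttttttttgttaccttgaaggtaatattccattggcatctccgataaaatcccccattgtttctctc
*GDPD1*, chr3:349961-350260, - strand: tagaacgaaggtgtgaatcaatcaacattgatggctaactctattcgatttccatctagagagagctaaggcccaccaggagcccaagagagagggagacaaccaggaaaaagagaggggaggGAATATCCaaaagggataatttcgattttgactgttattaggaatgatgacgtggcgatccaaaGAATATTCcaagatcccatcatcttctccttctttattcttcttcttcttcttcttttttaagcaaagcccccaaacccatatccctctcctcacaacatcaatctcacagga
Counted from the annotated start as position 0, the first base of the site was at 22 in *SPX1*, at -217 in *PS2*, and at -127 and -63 in *GDPD1*. A match of letters is a description and does not show binding, and the list also held promoters with the site whose genes did not pass the test, *MGD2* and *RNS1*.

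Nitrate genes went both ways, with 5 of 17 higher and 6 lower, and all 6 of the falls had no overlap between the sets (7.42% of all tested genes). Without any 1 library of *fld*, *ld* or *efl2 efl4*, 3 were called higher. *NIA1* (AT1G77760), a nitrate reductase gene, had 9661, 10125, 9986, 8830.5 and 11099.5 scaled reads in set 1, against 16532, 18876, 19832, 20405 and 19184 in set 2. All set 1 libraries lay below all set 2 libraries (log2FC -0.93 ± 0.06 (SE), edgeR adjusted p = 4.49e-06). *NIR1*, for nitrite reductase, averaged 11674 ± 482 scaled reads in set 1 and 15216 ± 468 in set 2 (SD, n = 5 each) (log2FC -0.38 ± 0.03 (SE), edgeR adjusted p = 3.25e-05). *HRS1* (AT1G13300), a nitrate-induced transcription factor gene that links nitrate with phosphate responses, had 432, 497, 538, 506 and 493 scaled reads in set 1, against 927, 1032, 1176, 1000 and 881 in set 2 and did not overlap either (log2FC -1.02 ± 0.05 (SE), edgeR adjusted p = 1.32e-06). In the other direction, the high-affinity nitrate transporter gene *NRT2.1* rose (log2FC 0.85), as did *RFNR2*, a root ferredoxin reductase gene (log2FC 0.38, edgeR adjusted p = 2.95e-05), while the transporter gene *NRT1.1* had a log2FC of -0.02 and did not pass.

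**Figure D2:**
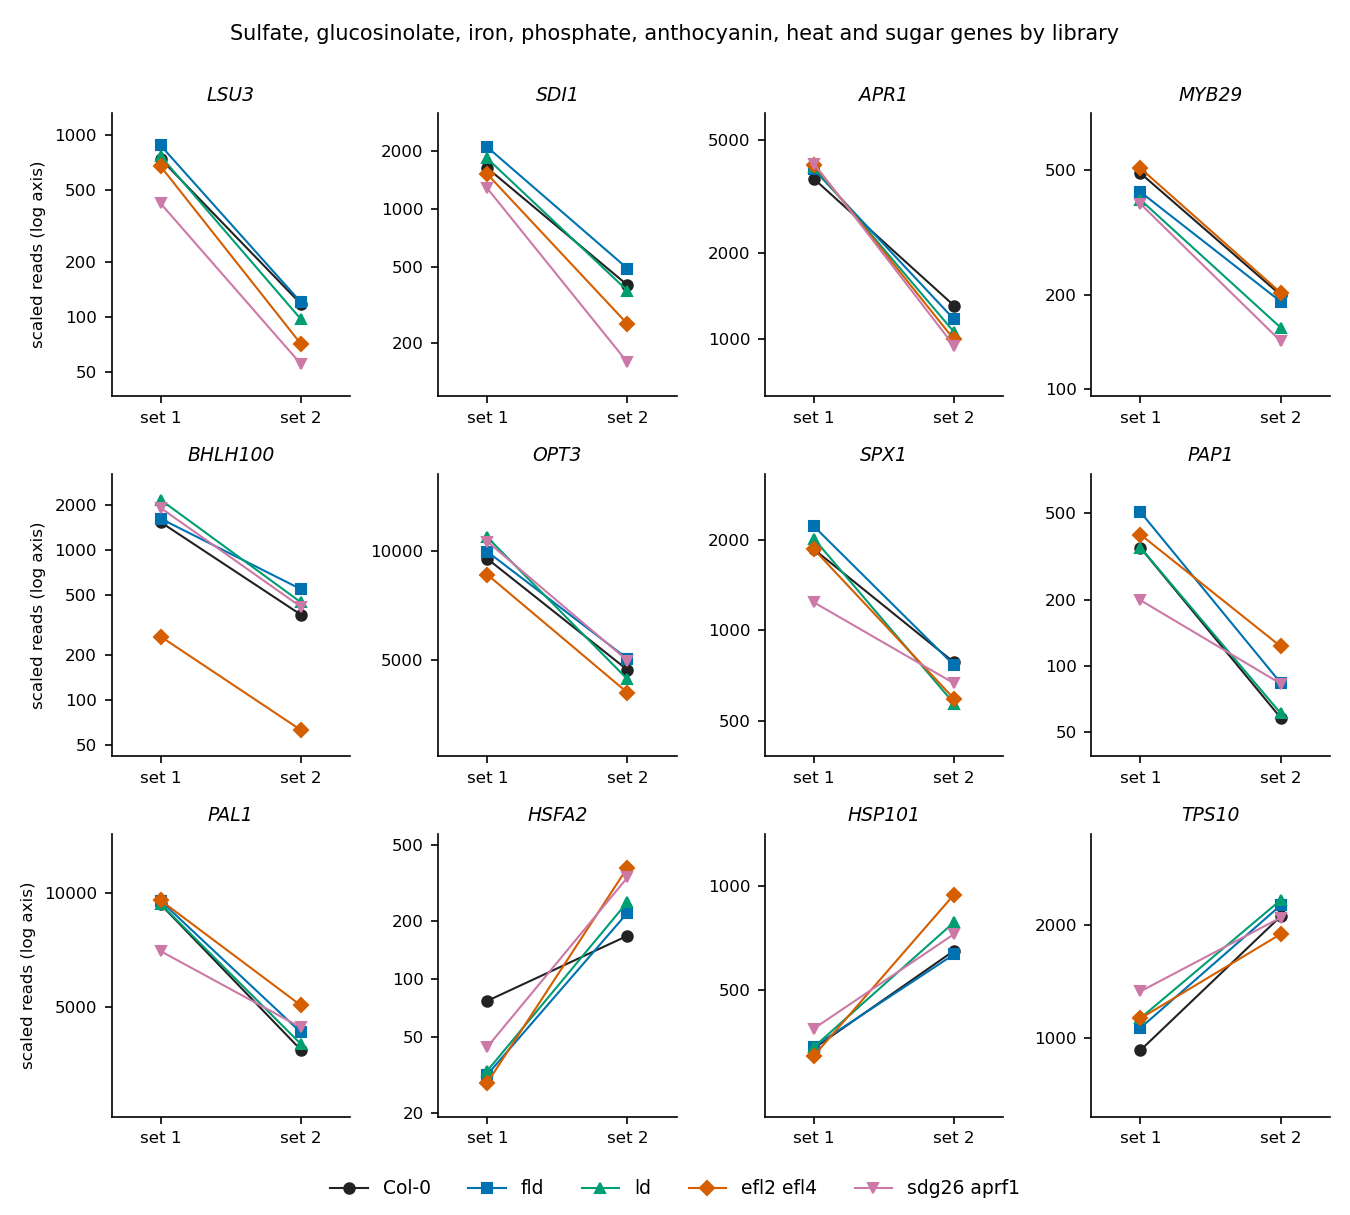
Scaled reads per library on a log axis for 12 genes, with replicate set 1 left and replicate set 2 right in each panel and a line joining the libraries of a genotype. *LSU3*, *SDI1*, *APR1*, *MYB29*, *OPT3*, *SPX1*, *PAP1* and *PAL1* fall from left to right in all 5 genotypes without overlap of the sets, *BHLH100* is higher in set 1 in all 5 genotypes but overlaps between the sets, with *efl2 efl4* far below the rest, and *HSFA2*, *HSP101* and *TPS10* are lower in set 1 in all 5.

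Flavonoids and anthocyanins are pigments of the phenylpropanoid pathway. Of 21 tested genes 19 rose and 0 fell, with a median log2FC of 0.75. *PAP1* (AT1G56650), a MYB activator of anthocyanin synthesis, had 348, 506, 348, 399 and 200.3 scaled reads in set 1, against 58.3, 84.1, 61.1, 123 and 83.4 in set 2. The lowest set 1 library was *sdg26 aprf1* and still exceeded the highest set 2 library, *efl2 efl4* (log2FC 2.12 ± 0.17 (SE), edgeR adjusted p = 2.11e-05). Its relative *PAP2* had 103, 179, 115, 121 and 61.4 scaled reads in set 1, against 7.90, 22.0, 24.5, 19.9 and 35.8 in set 2 (log2FC 2.37 ± 0.29 (SE), edgeR adjusted p = 0.000247). *MYBL2* (AT1G71030), a repressor of the same pathway that was not on the list, had 328, 475, 465, 418 and 289 scaled reads in set 1, against 93.8, 119, 108, 67.7 and 70.5 in set 2 and rose (log2FC 2.1 ± 0.10 (SE), edgeR adjusted p = 1.01e-06). Among the enzymes, *PAL1* and *PAL2* encode phenylalanine ammonia-lyase, the entry step. *PAL1* had 9308, 9506, 9333, 9535 and 7004 scaled reads in set 1, against 3846, 4277, 3983, 5039 and 4409 in set 2 (log2FC 1.05 ± 0.08 (SE), edgeR adjusted p = 1.24e-05). *PAL2* had 4329 to 6029 scaled reads in set 1, against 2789.7 to 3231 in set 2 (log2FC 0.83, edgeR adjusted p = 3.03e-06). Further along, *4CL3* (1.04), *CHS* (0.50), *CHI* (0.68), *FLS1* (0.74), *DFR* (0.53), *LDOX* (0.80) and *UGT78D2* (0.91) rose, and *F3H* (0.57) and the flavonol regulator *MYB111* (0.02) did not pass. Outside the list, *AACT1* is annotated as an anthocyanin acyltransferase, and whether it acts in this pathway was not tested. *AACT1* was lower in set 1, with 177, 197, 110, 37.8 and 147 scaled reads in set 1, against 407, 519, 549, 212 and 798 in set 2 (log2FC -1.90 ± 0.18 (SE), edgeR adjusted p = 4.86e-05).

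The clock genes were compared because their levels depend on the hour of harvest, which the sources do not give for either set. Of 16 tested genes that peak from afternoon to dusk, 11 rose and 3 fell in set 1, with a median log2FC of 0.24. Without both *ld* libraries 8 of them were called higher and 2 lower. Of 14 tested genes that peak around dawn and morning, 7 rose and 1 fell, with a median of 0.34. *GI* (AT1G22770), a scaffold protein gene of the clock and of photoperiodic flowering, had 147, 209.7, 139, 114 and 114 scaled reads in set 1, against 56.3, 54.0, 63.2, 63.7 and 59.6 in set 2. Each set 1 library had more than any set 2 library (log2FC 1.26 ± 0.15 (SE), edgeR adjusted p = 0.000207). *FKF1* (AT1G68050), the gene of a blue light receptor that works with GI, had 185, 219.7, 208, 152 and 143 scaled reads in set 1, against 95.8, 115, 106, 73.6 and 94.3 in set 2 (log2FC 0.90 ± 0.08 (SE), edgeR adjusted p = 4.84e-05). *PRR5* (AT5G24470), a pseudo-response regulator gene, had 331, 345, 388, 334 and 298 scaled reads in set 1, against 207, 219, 172, 179 and 162 in set 2 (log2FC 0.85 ± 0.08 (SE), edgeR adjusted p = 4.84e-05). *FKF1* and *PRR5* did not overlap between the sets. *ELF4*, the evening complex gene related to *EFL2* and *EFL4*, had 534, 590.4, 570, 539.8 and 495 scaled reads in set 1, against 357, 406, 379, 346 and 407 in set 2 (log2FC 0.53 ± 0.06 (SE), edgeR adjusted p = 0.00014). *LUX* (AT3G46640), also a gene of the evening complex, went the other way, with 837, 871, 916, 642 and 927 scaled reads in set 1, against 1079, 969, 1087, 1039.8 and 1084 in set 2. Its sets did not overlap (log2FC -0.33 ± 0.07 (SE), edgeR adjusted p = 0.00582), and its close relative *BOA* fell as well (log2FC -0.35). *TOC1* rose slightly, with 2289.5 to 2769 scaled reads in set 1, against 1958 to 2206 in set 2 (log2FC 0.24 ± 0.05 (SE), edgeR adjusted p = 0.00428).

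The morning genes that define the central loop showed less. *LHY* had 413, 258, 264, 408 and 287 scaled reads in set 1, against 319, 206, 206, 437 and 357 in set 2 and did not pass (log2FC 0.11 ± 0.10 (SE), edgeR adjusted p = 0.442). *CCA1* had 62.6 to 91.0 scaled reads in set 1, against 51.0 to 72.6 in set 2 (log2FC 0.32 ± 0.11 (SE), edgeR adjusted p = 0.0593) and also did not pass. *PRR9* was too low to be tested, with at most 4.04 scaled reads in any library. *PRR7* rose (log2FC 0.70 ± 0.14 (SE), edgeR adjusted p = 0.00382). The output factor *RVE1* (AT5G17300), which links the clock to auxin and growth, had 376, 311, 374, 329 and 397 scaled reads in set 1, against 202, 171, 167, 132 and 159.9 in set 2. All set 1 libraries were above all set 2 libraries (log2FC 1.1 ± 0.08 (SE), edgeR adjusted p = 1.2e-05). *CDF2*, which encodes a DOF repressor of *CO*, rose with 118 to 166 scaled reads in set 1, against 68.0 to 95.8 in set 2 (log2FC 0.81, edgeR adjusted p = 0.000975), and *LNK1* rose with a log2FC of 1.26.

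The evening element AAAATATCT, bound by CCA1 and its RVE relatives, was found on either strand in 9 of the 16 evening promoters (56.2%), against 2.97% of all tested promoters, in 4.40% of those of genes that rose and 2.74% of those of genes that fell. The windows of *PRR5* and *FKF1*, which rose, and of *LUX*, which fell, are shown as a set that shares the element but not the direction, with the element in capitals, from the same source.
*PRR5*, chr5:8358497-8358796, - strand: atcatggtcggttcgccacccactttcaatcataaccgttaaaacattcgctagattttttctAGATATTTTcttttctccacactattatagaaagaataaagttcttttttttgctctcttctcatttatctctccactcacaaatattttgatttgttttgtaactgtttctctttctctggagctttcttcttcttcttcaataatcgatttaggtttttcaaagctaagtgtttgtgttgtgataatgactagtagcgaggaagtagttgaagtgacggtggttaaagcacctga
*FKF1*, chr1:25508389-25508688, + strand: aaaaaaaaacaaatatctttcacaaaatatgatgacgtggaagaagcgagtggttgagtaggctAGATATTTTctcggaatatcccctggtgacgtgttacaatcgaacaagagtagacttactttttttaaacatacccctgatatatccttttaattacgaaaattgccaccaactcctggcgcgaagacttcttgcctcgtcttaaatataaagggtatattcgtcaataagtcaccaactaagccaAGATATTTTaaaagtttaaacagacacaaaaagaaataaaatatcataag
*LUX*, chr3:17182792-17183091, + strand: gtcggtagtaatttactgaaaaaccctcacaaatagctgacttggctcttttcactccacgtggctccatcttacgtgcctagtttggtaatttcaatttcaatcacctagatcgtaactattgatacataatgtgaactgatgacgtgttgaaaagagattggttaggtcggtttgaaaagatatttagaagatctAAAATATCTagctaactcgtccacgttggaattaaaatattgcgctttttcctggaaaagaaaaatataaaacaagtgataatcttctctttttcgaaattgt
Position 0 being the annotated start, the element began at -187 in *PRR5*, at -186 and 0 in *FKF1* and at -53 in *LUX*. The G-box CACGTG, which reads the same on both strands, was in 9 of the 14 morning promoters (64.3%) and in 8.67% of all tested promoters, 12% of those of genes that rose and 7.48% of those of genes that fell.

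**Figure D3:**
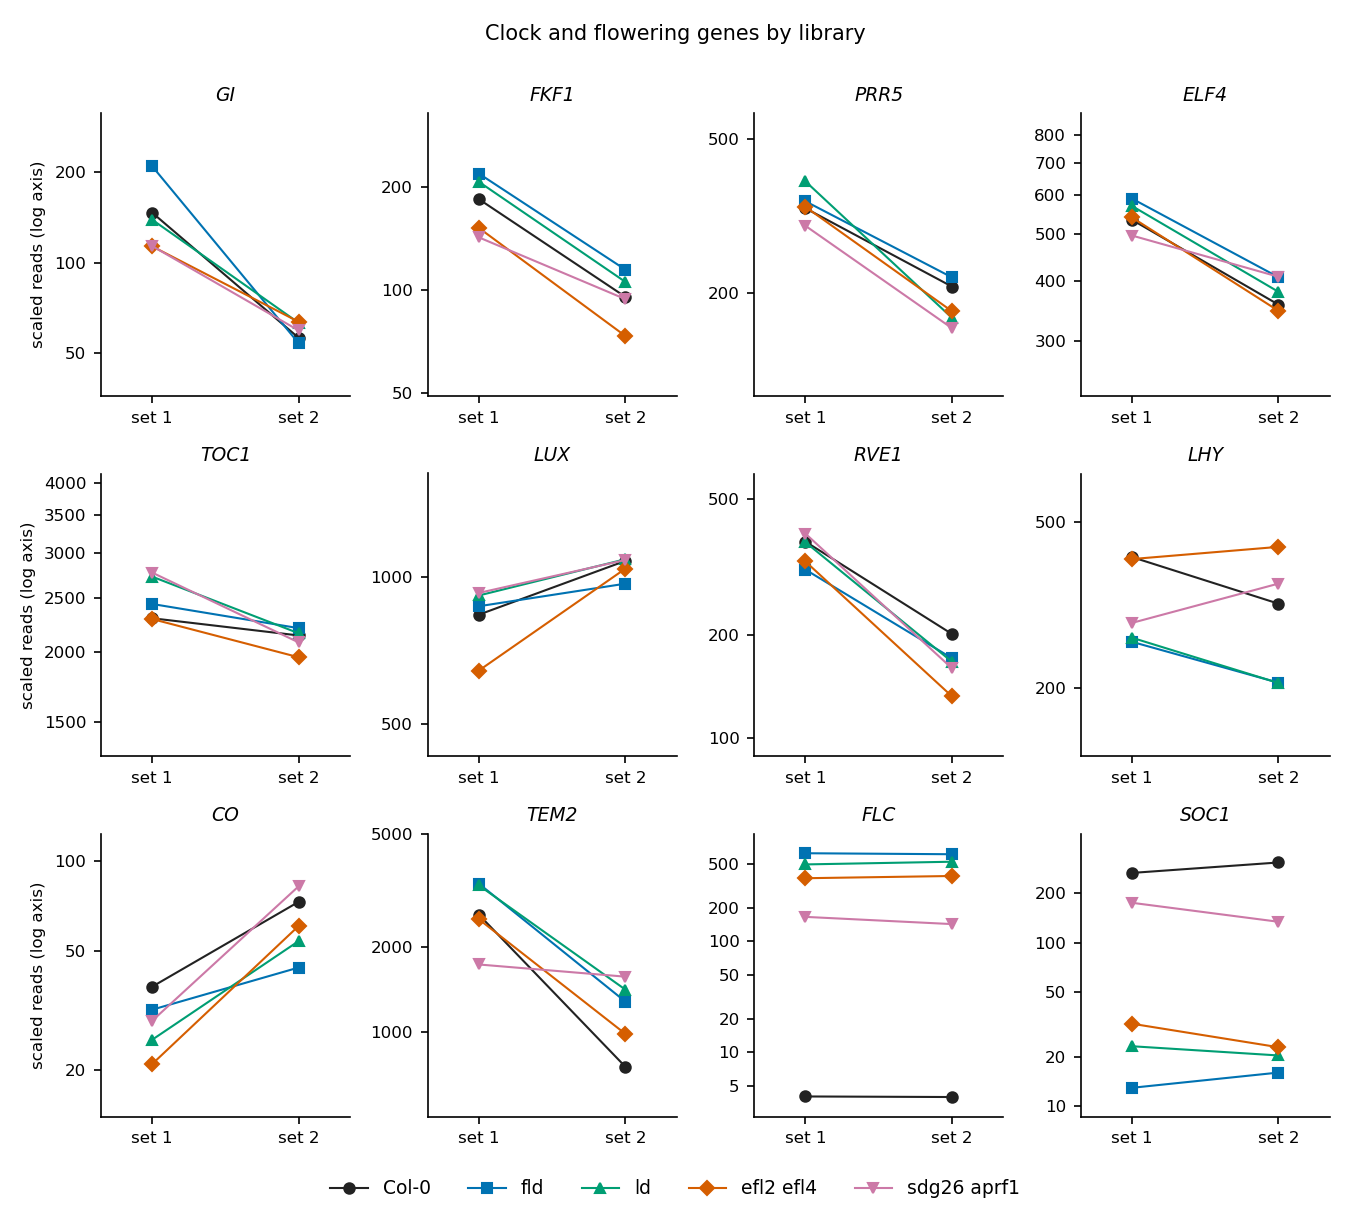
Scaled reads per library on a log axis for clock and flowering genes, with replicate set 1 left and replicate set 2 right and a line joining the libraries of a genotype. *GI*, *FKF1*, *PRR5*, *ELF4* and *RVE1* are higher and *LUX* and *CO* lower in set 1 in all 5 genotypes, whereas *FLC* and *SOC1* separate the genotypes and stay nearly level between the sets.

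Flowering genes were compared because they are the output of the autonomous pathway. Of 15 tested genes, 6 rose and 1 fell. *FLC* (AT5G10140) had 4.00, 622, 493, 370.5 and 166 scaled reads in set 1, against 3.95, 609, 522, 388 and 143 in set 2. The genotypes lay far apart and the sets nearly coincided (log2FC 0.00 ± 0.06 (SE), edgeR adjusted p = 0.966). On the scale of log2(scaled reads + 1), *FLC* within set 1 was above Col-0 by 6.96 in the *fld* library, 6.63 in that of *ld*, 6.22 in that of *efl2 efl4* and 5.06 in that of *sdg26 aprf1*; within set 2 these values were 6.95, 6.72, 6.30 and 4.86. Col-0 had about 4 reads of *FLC* in each set, so the counting error of these ratios is large. *SOC1*, a floral integrator repressed by FLC, had 267, 12.9, 23.2, 31.9 and 175 scaled reads in set 1, against 309, 16.0, 20.4, 22.9 and 134 in set 2 and did not pass (log2FC 0.08 ± 0.13 (SE), edgeR adjusted p = 0.696). *FT*, the florigen gene, had 51.0, 2.98, 5.04, 11 and 40.3 scaled reads in set 1, against 62.2, 6.0, 8.15, 9.95 and 27.8 in set 2 and did not pass either (log2FC -0.05 ± 0.22 (SE), edgeR adjusted p = 0.891), with few reads in *fld*, *ld* and *efl2 efl4*. *MAF5*, an *FLC* relative, had 11, 77.5, 44.4, 103 and 44.3 scaled reads in set 1, against 13.8, 94.1, 78.5, 112 and 29.8 in set 2 (log2FC -0.22 ± 0.17 (SE), edgeR adjusted p = 0.361). Upstream of *FT* the sets did differ. *CO* (AT5G15840), the photoperiod activator of *FT*, had 38.0, 31.8, 25.2, 20.9 and 29.2 scaled reads in set 1, against 73.1, 44.0, 54.0, 60.7 and 82.4 in set 2. Its set 1 libraries all lay below its set 2 libraries (log2FC -1.11 ± 0.17 (SE), edgeR adjusted p = 0.000915). *TEM2* and *TEM1* encode repressors of *FT*. *TEM2* had 2599.8, 3345, 3299, 2505 and 1734 scaled reads in set 1, against 756, 1283, 1414, 987 and 1570.2 in set 2, with *sdg26 aprf1* nearly equal in the sets (log2FC 1.17 ± 0.18 (SE), edgeR adjusted p = 0.000921). *TEM1* had 2076, 2369, 2279, 1611 and 1254 scaled reads in set 1, against 795, 1115, 1155, 777 and 1285 in set 2, lower in set 1 only in *sdg26 aprf1* (log2FC 0.90 ± 0.16 (SE), edgeR adjusted p = 0.00222). The AP2-like repressor genes *TOE1* (log2FC 0.44, edgeR adjusted p = 1.88e-05) and *SMZ* (log2FC 0.68, edgeR adjusted p = 0.000679) and the MADS repressor gene *SVP* (log2FC 0.43, edgeR adjusted p = 0.000246) rose as well. Among the phase change genes of the SPL family, *SPL9* (log2FC 0.63) and *SPL11* (0.62) rose and *SPL2* (-0.46) and *SPL4* (-0.61) fell. The fall of *SPL4* did not pass with DESeq2 (DESeq2 adjusted p = 0.181).

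Leaving aside the seed markers, heat shock genes were the list with the lowest median. Of 16 tested genes 12 fell in set 1 and 1 rose, with a median log2FC of -0.73, and in 11 of the 12 the sets did not overlap. Among all tested genes 13.5% were called lower, and 7.42% were lower without overlap. *HSFA2* (AT2G26150), the heat-induced transcription factor that sustains the response, had 77.0, 31.8, 33.3, 28.9 and 44.3 scaled reads in set 1, against 168, 221, 252, 380.1 and 338 in set 2. The set 2 libraries exceeded every set 1 library, and the difference was smallest in Col-0 (log2FC -2.63 ± 0.27 (SE), edgeR adjusted p = 7.96e-05). *HSP101* (AT1G74310), a disaggregase gene needed for acquired thermotolerance, had 338, 342, 341, 322 and 386 scaled reads in set 1, against 648, 632, 784, 942 and 724 in set 2 (log2FC -1.1 ± 0.09 (SE), edgeR adjusted p = 2.14e-05). *HSP90.1* had 641, 514, 623, 633 and 694 scaled reads in set 1, against 1216, 1232, 1797, 2592 and 1721 in set 2 (log2FC -1.42 ± 0.12 (SE), edgeR adjusted p = 3.05e-05). In both, *efl2 efl4* was the highest library of set 2. *HSP70* (-0.97), *ROF2* (-0.93), *HSFA7A* (-0.83) and *MBF1C* (-0.99) also fell, and *HSFB2A* was the gene that rose (0.66). A further 9 genes of the list, most of them small heat shock protein genes such as *HSP21* and *HSP17.6A*, were below the filter of 10 scaled reads and were not tested. Off the list, genes annotated as chaperones were among the largest falls of all: AT4G21870, of the HSP20-like family, had 153, 142, 150.3, 174 and 258 scaled reads in set 1, against 1751, 681, 1269, 1072 and 1265 in set 2 (log2FC -2.75 ± 0.16 (SE), edgeR adjusted p = 2.56e-06), and AT1G72416, with a DnaJ domain, had 349.8, 328, 513, 685 and 1099 scaled reads in set 1, against 3523, 2085, 3366, 3249 and 3302 in set 2 (log2FC -2.48 ± 0.19 (SE), edgeR adjusted p = 1.59e-05). The endoplasmic reticulum stress list did not move with them, with 1 of 10 genes lower, *ERDJ3A* (log2FC -0.73, edgeR adjusted p = 0.000499).

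The heat shock element, searched as GAANNTTC, which reads the same on both strands and was chosen after values had been seen, was in 6 of the 16 heat shock promoters (37.5%) and in 11.3% of all tested promoters. It was not particular to that list, being in 8 of the 19 phosphate starvation promoters (42.1%) and 10 of the 36 rapid stress promoters (27.8%). The share was 17.8% among genes that fell and 19.0% among genes that rose by at least 1 on the log2 scale. The window of *HSFA2*, the gene of the list with the largest fall, holds 3 matches, shown in capitals.
*HSFA2*, chr2:11135374-11135673, + strand: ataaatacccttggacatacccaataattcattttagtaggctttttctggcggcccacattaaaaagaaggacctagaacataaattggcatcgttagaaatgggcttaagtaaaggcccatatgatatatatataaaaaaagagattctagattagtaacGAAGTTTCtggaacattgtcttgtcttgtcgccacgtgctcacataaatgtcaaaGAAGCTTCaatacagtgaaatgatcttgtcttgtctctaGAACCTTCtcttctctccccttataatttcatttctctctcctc
They began at -88, -33 and 6 from the annotated start as position 0.

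Genes induced by sugar starvation fell in set 1 in 11 of 20 cases and rose in 1, with a median log2FC of -0.25. The count of falls was 6 without either *ld* library, 7 without either *fld* library and 7 with DESeq2. *TPS10* (AT1G60140), of the trehalose phosphate synthase family, had 929, 1064, 1130, 1128 and 1331 scaled reads in set 1, against 2105, 2252, 2325, 1888 and 2089 in set 2. The sets did not overlap (log2FC -0.94 ± 0.07 (SE), edgeR adjusted p = 1.67e-05). *SEN1*, a dark-induced gene, had 207, 379, 389, 390.4 and 341 scaled reads in set 1, against 832, 1004, 930.3, 679 and 503 in set 2 (log2FC -1.20 ± 0.16 (SE), edgeR adjusted p = 0.000411). *DIN10*, of the raffinose synthase family, had 2429.9, 2701, 3878, 4232 and 7232 scaled reads in set 1, against 9679, 6826, 10851, 6495 and 8886 in set 2. In *sdg26 aprf1* the set 1 library of *DIN10* lay within the range of the set 2 libraries (log2FC -1.14 ± 0.20 (SE), edgeR adjusted p = 0.00217). The hexose transporter gene *STP1* fell (log2FC -0.57, edgeR adjusted p = 0.000844), whereas *ASN1*, an asparagine synthetase gene commonly used as a starvation marker, had a log2FC of -0.14 and did not pass. By genotype the median of the list was -0.35 in Col-0, -0.36 in *fld*, -0.38 in *ld*, -0.14 in *efl2 efl4*, with *sdg26 aprf1* at -0.06.

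Photosynthesis genes were nearly level. Of 31 nuclear photosystem and antenna genes 2 rose and 7 fell, and all lay between -0.26 (*LHCB4.2*) and 0.28 (*LHCB2.1*). The share called, 29.0%, was near the 29.1% of all tested genes. In *ld* 30 of the 31 genes lay below 0, with a median of -0.17. Above 0 were 11 in Col-0, 12 in *fld*, 18 in *efl2 efl4* and 18 in *sdg26 aprf1*. Whether the genotypes differ in this was not tested. Among 13 Calvin cycle genes 3 were called higher and 1 lower, against 15.7% and 13.5% of all tested genes, and with DESeq2 2 were called higher and 1 lower. The largest rises were those of *FBA1*, an aldolase gene (log2FC 0.27, edgeR adjusted p = 0.000116), and of *PRK*, the phosphoribulokinase gene (log2FC 0.25, edgeR adjusted p = 0.000216). Of 21 cytosolic ribosomal protein genes only *RPS5A* passed (log2FC -0.14), and the median of that list was 0.0057, with all values between -0.14 and 0.05.

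Genes of DNA replication rose in 13 of 15 cases and fell in 0, with a median of 0.24. *TSO2*, which encodes the small subunit of ribonucleotide reductase, had 2747, 2494, 2934, 2113 and 2319.6 scaled reads in set 1, against 1712, 1741, 1629, 1486 and 1697 in set 2 (log2FC 0.60 ± 0.06 (SE), edgeR adjusted p = 4.64e-05). *RNR1*, the large subunit gene, had 1572 to 1768 scaled reads in set 1, against 1142 to 1298 in set 2 (log2FC 0.44, edgeR adjusted p = 0.000145). Both did not overlap between the sets, and the helicase subunit genes *MCM7* (0.30) and *MCM3* (0.32) rose less. Without either *ld* library, and likewise with DESeq2, 8 of the 15 were called higher. Of 15 genes of the G2 to M transition 3 were called higher and 0 lower, a share near the 15.7% of all tested genes called higher, and at most 1 was called with any genotype or library left out.

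Light and growth regulators split. Of 14 tested genes of the PIF and shade list 6 rose and 4 fell, and 2 were called lower without any 1 library of Col-0, *fld* or *efl2 efl4*. The photomorphogenesis factor gene *HY5* (AT5G11260) had 495, 525, 439, 470.1 and 412 scaled reads in set 1, against 299, 277, 305, 292 and 289 in set 2 and its relative *HYH* had 523, 533, 472, 524 and 435 scaled reads in set 1, against 362, 345, 319, 397 and 341 in set 2. Both were higher in every set 1 library than in any set 2 library (*HY5* log2FC 0.68 ± 0.07 (SE), edgeR adjusted p = 6.07e-05). The shade marker *ATHB2* rose (log2FC 0.54, edgeR adjusted p = 6.66e-05), while the auxin and PIF target genes *IAA29* (-1.22) and *PRE1* (-0.96) fell. Of 15 auxin response genes 7 fell and 0 rose, with a median of -0.37. With DESeq2 5 were called lower, and without both Col-0 libraries 2 were called higher and 6 lower. *IAA19* had 64.0, 67.6, 51.5, 49.8 and 72.5 scaled reads in set 1, against 145, 105, 115, 82.6 and 124 in set 2 (log2FC -0.90 ± 0.11 (SE), edgeR adjusted p = 0.000293). *GH3.3*, which encodes an enzyme that conjugates auxin, had 112 to 143 scaled reads in set 1, against 167 to 222 in set 2 (log2FC -0.62, edgeR adjusted p = 0.000186). The auxin median by genotype was -0.87 in Col-0, -0.46 in *fld*, -0.45 in *ld*, -0.18 in *efl2 efl4*, with *sdg26 aprf1* at -0.01. Of the cytokinin response regulators, *ARR6* had 99.0, 83.5, 95.8, 66.7 and 124 scaled reads in set 1, against 259, 193, 239, 149 and 258 in set 2 (log2FC -1.23 ± 0.08 (SE), edgeR adjusted p = 4.91e-06) and *ARR7* fell as well (log2FC -0.82, edgeR adjusted p = 0.000861), and the other 7 genes of that list did not pass. *GA3OX2*, which encodes an enzyme of the last step to active gibberellin, had 70.0, 67.6, 62.6, 53.8 and 44.3 scaled reads in set 1, against 19.8, 12, 25.5, 11.9 and 19.9 in set 2. All of its set 1 libraries exceeded all set 2 libraries (log2FC 1.74 ± 0.20 (SE), edgeR adjusted p = 0.00016), while its paralog *GA3OX1* was lower in set 1 (log2FC -0.27, edgeR adjusted p = 0.00407).

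Rapid stress and touch genes, which rise within minutes of wounding, handling or elicitation, were higher in set 1 in 19 of 36 cases and lower in 2, with a median of 0.72. Leaving aside the tissue markers, no other list had medians that lay as far apart among the genotypes. They were 1.25 in Col-0, 0.87 in *fld*, 0.79 in *ld*, 0.70 in *efl2 efl4*, with *sdg26 aprf1* at -0.15. In Col-0, 23 of the 36 genes had at least 1 on the log2 scale, in *sdg26 aprf1* 3 did, and 22 of the 36 were below 0 there; whether the genotypes differ in this was not tested, since each has 1 pair. Without both *sdg26 aprf1* libraries 23 genes were called higher and 2 lower. Without both *ld* libraries these counts were 14 and 2, and with DESeq2 16 and 2. *WRKY22* (AT4G01250), a defence transcription factor gene, had 394, 333, 461, 347 and 432 scaled reads in set 1, against 111, 116, 139, 129 and 187 in set 2. It did not overlap and rose in all 5 pairs (log2FC 1.53 ± 0.09 (SE), edgeR adjusted p = 2.96e-06). *WRKY40* had 527, 704, 997, 702 and 817 scaled reads in set 1, against 141, 279, 239, 232 and 376 in set 2 (log2FC 1.58 ± 0.12 (SE), edgeR adjusted p = 1.37e-05). Its partner *WRKY18* (AT4G31800) went the other way, with 297, 329, 564, 784 and 1029.9 scaled reads in set 1, against 1350.4, 1103, 1511, 1874 and 2122 in set 2, and set 1 was again without overlap but lower (log2FC -1.50 ± 0.13 (SE), edgeR adjusted p = 3.14e-05). Both encode related repressors of defence that act together. *ORA47* (AT1G74930), an AP2/ERF factor gene of the wound response outside the list, was the largest rise of all named genes, with 276, 203, 137, 72.7 and 124 scaled reads in set 1, against 15.8, 29.0, 14.3, 18.9 and 15.9 in set 2 (log2FC 3.07 ± 0.22 (SE), edgeR adjusted p = 9.16e-06).

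**Figure D4:**
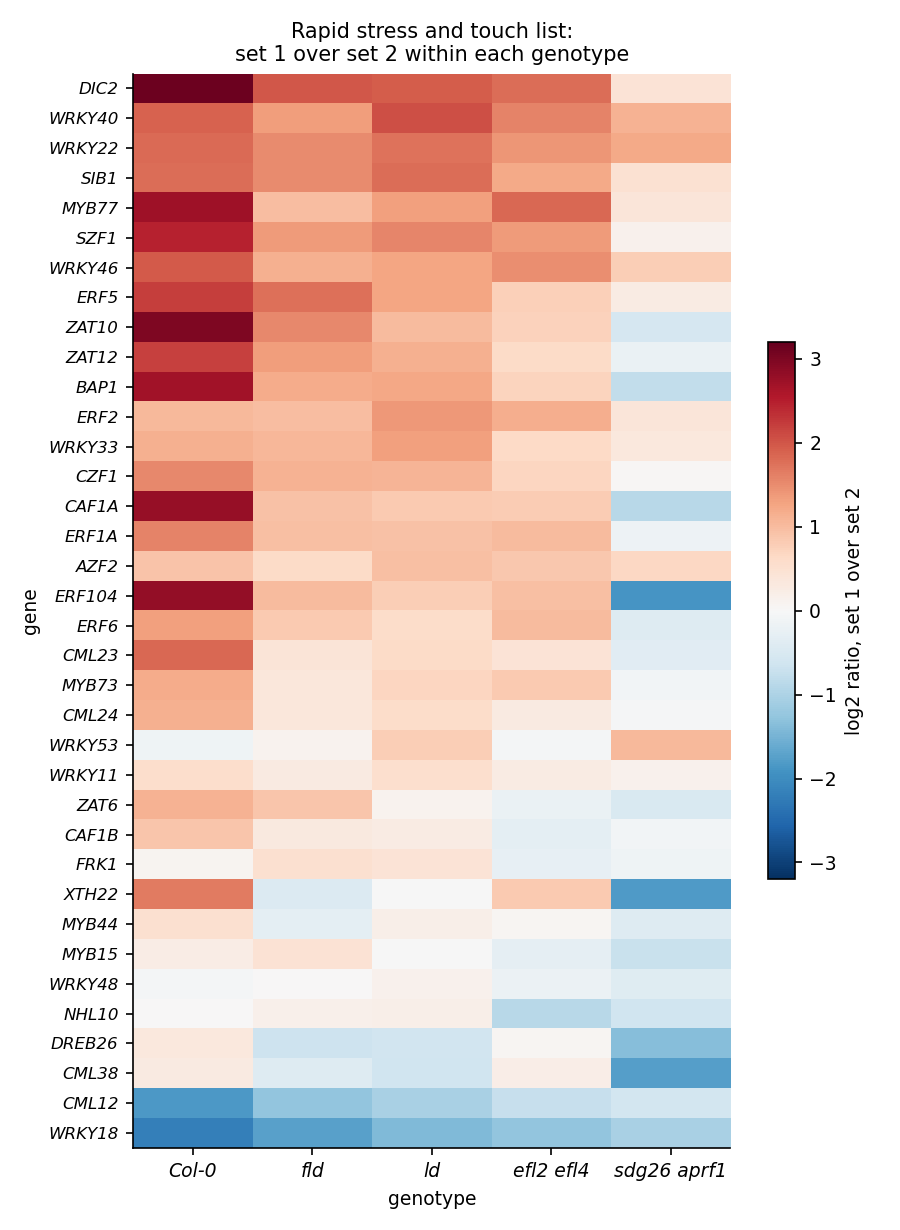
Log2 ratio of set 1 over set 2 within each genotype for the 36 tested genes of the rapid stress and touch list, ordered by the log2FC of the fit; red is higher and blue lower in set 1. Most genes are red in the first 4 genotypes, with medians of 1.25, 0.87, 0.79 and 0.70, and pale or blue in *sdg26 aprf1*, with a median of -0.15, while *WRKY18* is blue in all 5.

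Hormone and defence lists were mixed. Beside their counts, 15.7% of all tested genes were called higher and 13.5% lower. Of 23 abscisic acid genes 9 rose and 6 fell: the phosphatase gene *ABI1* (log2FC 0.78, edgeR adjusted p = 1.59e-05), the NAC factor gene *RD26* (log2FC 1.06, edgeR adjusted p = 0.000129) and the synthesis gene *NCED3* (log2FC 1.23) rose, and the receptor genes *PYL5* (-0.63) and *PYL6* (-0.49) fell. Of 25 jasmonate genes 7 rose and 6 fell, with 4 called higher without either *efl2 efl4* library and 3 called lower with DESeq2. *LOX4*, a lipoxygenase gene of jasmonate synthesis, had 483, 627, 926, 953 and 1410.5 scaled reads in set 1, against 348, 376, 291, 369 and 387 in set 2 (log2FC 1.24 ± 0.17 (SE), edgeR adjusted p = 0.000549), and *CYP94C1*, whose enzyme oxidises the active hormone, had 25.0 to 48.8 scaled reads in set 1, against 50.0 to 136 in set 2 and fell (log2FC -1.19, edgeR adjusted p = 0.000201). *MYC2* of this list was listed at 0 in every library, and whether it was expressed cannot be told from that. Of 21 salicylic acid genes 5 rose and 3 fell, the falls being near the 13.5% of all tested genes. *WRKY70*, with 2275, 2136, 2737, 2777 and 2026 scaled reads in set 1, against 439.6, 1141, 1017, 1089 and 1483 in set 2 (log2FC 1.27 ± 0.20 (SE), edgeR adjusted p = 0.00125), and *CBP60G* (log2FC 1.22, edgeR adjusted p = 0.000367), both regulators of that pathway, rose, while *WAK1* fell (log2FC -0.90, edgeR adjusted p = 3.85e-06). The synthesis gene *ICS1* (log2FC 0.09) and the marker *PR1* (-1.06) did not pass. Among 9 ethylene genes 1, *ACS6*, rose and 3 fell, with a median log2FC of -0.07. The falls were those of *ACS8*, with the lowest log2FC of the list (-1.345), *ETR2* and *ERS1*. With DESeq2 1 was called lower, and without either *ld* library 0 were called higher and 1 lower. *ACS6*, which encodes a stress-induced enzyme of ethylene synthesis, had 2035, 1720.5, 1716, 1461 and 595 scaled reads in set 1, against 283, 592, 595, 757 and 757 in set 2; the first 4 genotypes were higher in set 1 and *sdg26 aprf1* was lower (log2FC 1.29 ± 0.33 (SE), edgeR adjusted p = 0.0143), and its adjusted p rose up to 0.0642 among the alternatives. Of 19 genes of oxidative and mitochondrial stress 7 fell and 1 rose, led by *CYP81D8* (log2FC -1.12, edgeR adjusted p = 1.18e-05). In the hypoxia list 2 of 16 rose, near the 15.7% of all tested genes, and 5 fell, with 3 called lower without *efl2 efl4* replicate 2. Cold and dehydration genes had 4 of 13 higher and 3 lower, with *ERD10* lower (log2FC -0.55, edgeR adjusted p = 2.86e-05) and *COR413-PM1* higher (log2FC 0.43, edgeR adjusted p = 2.37e-05). In the senescence list 4 of 9 rose, most of all the NAC factor gene *NAP*, with 76.0, 108, 96.9, 161 and 83.6 scaled reads in set 1, against 39.5, 31.0, 25.5, 20.9 and 37.7 in set 2 (log2FC 1.74 ± 0.23 (SE), edgeR adjusted p = 0.000443).

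**Figure D5:**
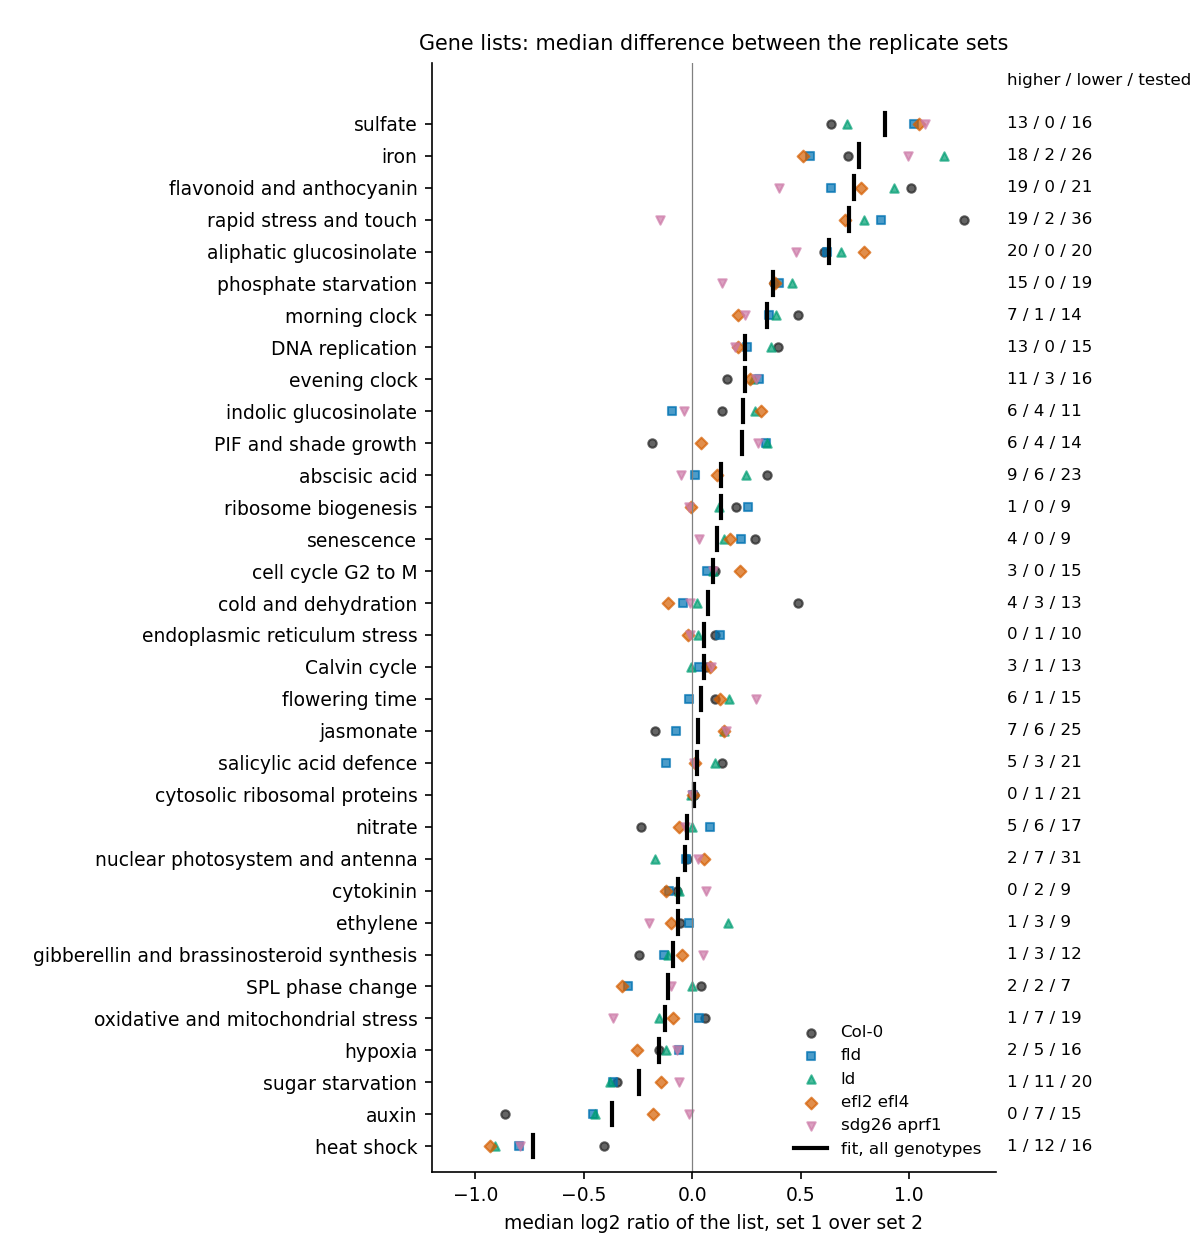
Median log2 ratio of set 1 over set 2 for each gene list; the black bar is the median of the fitted log2FC, the symbols are the medians within each genotype, and the numbers at the right count the genes called higher, called lower and tested. Sulfate, iron, flavonoid, rapid stress and aliphatic glucosinolate lists lie at 0.63 to 0.89, the heat shock list at -0.73, and the ribosomal protein list near 0.

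The lists held 54 of the 189 genes called higher by at least 1 on the log2 scale and 21 of the 118 called lower, so most large differences lay outside them. The largest fall among the named genes was that of AT5G14110, annotated as a DUF3339 protein, with 0, 7.95, 8.07, 5.98 and 19.1 scaled reads in set 1, against 28.6, 87.1, 148, 22.9 and 115 in set 2 (log2FC -3.26 ± 0.30 (SE), edgeR adjusted p = 4.23e-05). AT3G24420, of the alpha/beta-hydrolase superfamily, had 79.0, 64.6, 73.7, 70.7 and 89.6 scaled reads in set 1, against 389, 464, 619.5, 749 and 696 in set 2 (log2FC -2.93 ± 0.12 (SE), edgeR adjusted p = 4.38e-07). *EXPA16* (AT3G55500), which encodes an expansin that loosens cell walls, had 59.0, 56.7, 44.4, 71.7 and 72.5 scaled reads in set 1, against 403, 384, 428, 465 and 439 in set 2. In all 3 the sets did not overlap, and each fell in every pair (log2FC -2.80 ± 0.09 (SE), edgeR adjusted p = 1.54e-07). *BXL1*, a beta-xylosidase gene of the cell wall, fell (log2FC -1.70, edgeR adjusted p = 0.00111), as did *PP2-A5*, a phloem protein 2 gene (log2FC -2.16, edgeR adjusted p = 0.000355), the AP2/ERF-type factor gene AT1G64380 (log2FC -2.1, edgeR adjusted p = 0.000136), the MATE efflux gene AT3G23550 (log2FC -1.80, edgeR adjusted p = 1.38e-05) and the protein kinase gene AT1G66930 (log2FC -1.68, edgeR adjusted p = 0.00216). Among the rises, *HSPRO2* (AT2G40000), known as an ortholog of a sugar beet nematode resistance gene, had 4691, 4410.1, 5594, 3904 and 3211 scaled reads in set 1, against 1008, 971, 1363, 984 and 1222 in set 2. The set 1 libraries had more than any set 2 library (log2FC 1.96 ± 0.10 (SE), edgeR adjusted p = 1.58e-06). *NIG1*, annotated as a calcium-binding transcription factor, had 65.7 to 157 scaled reads in set 1, against 14.9 to 41.5 in set 2 (log2FC 2.05, edgeR adjusted p = 1.47e-05), and AT2G22590, of the UDP-glycosyltransferase superfamily, had 74.5 to 121 scaled reads in set 1, against 13.9 to 23.4 in set 2 (log2FC 2.38, edgeR adjusted p = 6.21e-06).

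Markers of tissues were counted beside these results, and their part in them was not tested. Among all tested genes 15.7% were called higher and 13.5% lower. Of 25 root genes 1 rose and 5 fell (3 without either *efl2 efl4* library and 2 with DESeq2), and the summed level of the 26 root genes was 46229.9 to 54986 scaled reads in set 1, against 52225 to 60782 in set 2. Among them *TIP2;3*, a root aquaporin gene, had 67.7 to 163 scaled reads in set 1, against 98.5 to 317 in set 2 (log2FC -0.70, edgeR adjusted p = 0.000442). Of 8 stomatal lineage genes 3 fell, with *EPF2* at 101 to 133 scaled reads in set 1, against 165 to 175 in set 2 (log2FC -0.59, edgeR adjusted p = 0.000841), and the summed level of the list was 1436 to 1627 scaled reads in set 1, against 1563 to 1786 in set 2. Flower and pollen genes were low in both sets, with summed levels of 86.8 to 133 scaled reads in set 1, against 53.0 to 178 in set 2 for the 9 flower genes and 31.2 to 41.8 scaled reads in set 1, against 21.4 to 42.8 in set 2 for the 6 pollen genes. The seed storage gene *CRA1* was called lower (log2FC -1.93, edgeR adjusted p = 0.0482) from 1 library only, *efl2 efl4* replicate 2 with 105.5 scaled reads, where the other 9 libraries had at most 7.95, and its log2FC was 0.24 without *efl2 efl4* replicate 1, when the remaining *efl2 efl4* library no longer enters the comparison. Whether a set of seedlings held more root, more leaf or a germination residue was not tested.

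Of 163 named genes with a fitted value, 39 overlap a gene on the opposite strand, among them *APR1*, *APR2*, AT1G04770, *BHLH101*, *GDPD1*, *PAP17*, *FKF1*, *LUX*, *RVE1*, *CO*, *FLC*, *HSP101*, *WRKY40* and *ORA47*. Whether reads were counted by strand is not stated in the sources used here, so reads of such a gene and of its partner cannot be told apart.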

How the data were processed

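RNA-seq was available for 10 libraries, 2 of each of 5 genotypes, prepared from TRIzol-extracted total RNA of 10-day-old seedlings. According to the labels and the study's methods, reads were single-ended and 50 bases long. The authors used HISAT2 for alignment to the TAIR10 genome, featureCounts for the counts per gene and edgeR for normalization. Whether counting used strand is not given in the sources used here. The deposited signal is normalized reads per gene. It comes as 4 tables of 32548 genes, and each sets 1 mutant beside the same Col-0 libraries. The fold changes and p-values that the tables also hold were not used.

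To recover whole reads, the value that 1 read takes was estimated for each library by least squares, and the values were divided by it and rounded, since in 14 of the 16 columns the smallest positive value belonged to a gene without reads and could not serve as the divisor. Between 98.9% and 100% of the values came out whole within 0.1, and the Col-0 reads from the 4 tables were identical (0 of 32548 genes differing).

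The 10 libraries were scaled by TMM, and the 20050 genes with a mean of at least 10 scaled reads were tested by the quasi-likelihood F test of edgeR (4.0.16; R 4.3.3) with genotype as a block and the replicate set as the factor. P-values were adjusted by Benjamini-Hochberg over all tested genes and a gene was called at an adjusted p under 0.05. The SE of a log2FC was its size divided by the square root of F. These p-values measure the spread between the 5 within-genotype differences.

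The named genes were the 12 largest rises and 12 largest falls among called genes with 1 direction in all 5 pairs and a mean of at least 50 scaled reads in the higher set, up to 4 called genes of each list with the lowest p, and a fixed group of 19 clock, flowering and mutated genes. Other genes named from the lists were chosen after their values were seen. The 38 lists hold 651 genes, of which 588 were tested. The members, lists and tests were chosen with earlier results of these data known. Alternatives were DESeq2 (1.42.0), limma (3.58.1) with a trend on log2(scaled reads + 1 or + 5), other scalings, filters and thresholds, no block, an offset for length and GC content, and leaving out each genotype and each library. Gene positions and promoters came from the TAIR10.1 assembly of RefSeq, to which all 32548 identifiers matched. Figures were drawn in Python 3.11.15 with matplotlib 3.10.9.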

Additional observations from a re-analysis of the deposited data

Results flagged for a closer look

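Within-genotype differences of 42 named genes and of the summed level of 33 lists were searched for 1 genotype that stands apart from the other 4 by Dixon's criterion for 5 values, which chance meets in about 1 of 20 cases; 8 differences met it, and no cause was tested. For *HSPRO2* the log2 ratio of set 1 over set 2 was 1.39 in *sdg26 aprf1*, against 1.99 to 2.22 in the other genotypes. For *ELF4* it was 0.28 in *sdg26 aprf1*, against 0.54 to 0.64. The summed flowering time list had 0.25 in *sdg26 aprf1*, against 0.55 to 0.65, and the summed nitrate list -0.20 in *sdg26 aprf1*, against -0.40 to -0.36. In Col-0, AT1G66930 stood at -3.68, against -1.68 to -0.86 elsewhere, and the summed SPL phase change list at 0.13, against -0.20 to -0.13. *EXPA16* had -3.24 in *ld*, against -2.75 to -2.58, and the summed list of the G2 to M transition 0.23 in *efl2 efl4*, against 0.07 to 0.11. Of the 8, 4 concern *sdg26 aprf1*, and in each of these 4 its difference was the smallest in size.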

How the results depend on the processing

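The libraries were paired by genotype. By replicate number, no paired analysis was possible because that number is itself the factor compared. Without the genotype block 2458 genes were called higher and 2123 lower in set 1. DESeq2 called 1908 higher and 1546 lower. At an adjusted p under 0.01 the counts were 1879 and 1425, at an adjusted p under 0.05 with a log2FC of at least 1 in size 189 and 118, and at an unadjusted P under 0.01 with that log2FC 186 and 114. Leaving out a genotype or a library gave 2171 to 3099 higher and 1775 to 2774 lower, the lowest count of lower genes being that without *ld* replicate 1. Scaling moved the share of higher calls from 53.7% to between 48.4% (length and GC offset) and 53.8%, with a median log2FC over all genes of -0.012 to 0.0012, so no shift of over 0.1. Of 163 named genes, 134 kept direction and call under all 26 alternatives other than call thresholds. The reversals were of genes that did not pass, and of *CRA1*, which rests on 1 library. With upper-quartile scaling *FLC* had -0.0055, with total reads -0.0044, with the length and GC offset -0.0121 and without the genotype block -0.0065. With genotypes or libraries left out, log2FC ran between -0.0407 and 0.0395 for *FLC*, -0.0843 and 0.0710 for *EFL4*, -0.312 and 0.142 for *FT*, -0.0820 and 0.304 for *SOC1* and -2.36 and 0.24 for *CRA1*, whose positive value was that without *efl2 efl4* replicate 1. Depth was nearly equal among the libraries. Genes with few reads, such as *FT* and *PRR9*, are limited by counting error. Each genotype has 1 pair, so differences between genotypes in how far the sets lie apart cannot be tested.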
